A study of Drosophila melanogaster with 4 samples.

Results

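The 10 genes described here encode transcription regulators, grouped as early follicle lineage factors of the Drosophila melanogaster ovary. They are tj, cas, zfh1, chinmo, bun, hth, exd, en, ct and Sox14. They were taken by symbol from the authors' deposited table of the comparison, in which each has 1 row among 15682 genes. RNA was sequenced from ovary follicle cells in 2 groups of 2 libraries. The control cells carried UAS-CD8-GFP, a membrane-bound green fluorescent protein, and the EGFR-activated cells carried UAS-EGFR-lambdatop, an activated epidermal growth factor receptor, together with UAS-CD8-GFP. All flies were raised at 18 °C and moved as adults to 29 °C for 7 to 10 days. The GAL4 driver of these transgenes and the age of the flies are not stated in the sources at hand, and each library is a bulk sample of many cells. Every fold change, standard error (SE) and p-value of a single gene below is from the authors' deposited table unless another source is named. A fold change is the log2 ratio of EGFR-activated to control, and an adjusted p under 0.05 counts as past the test.

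Follicle stem cells at the start of each ovariole divide into precursors, which become polar cells, stalk cells or the main-body epithelium that wraps each germ line cyst. Polar cells secrete the ligand of the JAK-STAT pathway, main-body cells first divide, and a Notch signal from the germ line then moves them from the mitotic cycle to the endocycle. Several of the factors mark or set steps of that sequence, from somatic identity (tj) through the precursor and stalk fates (cas, zfh1) and the mitotic phase (ct) to the ecdysone response (Sox14). Outside that sequence, en is expressed in the niche of the germ line.

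Of the 10 genes, 2 passed the test, in opposite directions: tj rose and Sox14 fell in EGFR-activated cells. A further 7 had an adjusted p and did not pass, and en, with almost no reads, had none. Over all 9409 genes with an adjusted p, 35.5% passed, 18.0% higher and 17.5% lower, beside 2 of the 9 fate factors with one. The same shares are the background for the as-deposited counts of the gene lists below. Among the 3526 genes with a mean of at least 1000 normalised counts the share was 43.4%, and of the 7 fate factors at that level 2 passed. The 10 fold changes had a median of 0.14 and ran from −1.09 to 0.87, with 6 above 0 and 4 below. The median over all genes with a p-value was 0.01. In bulk RNA a change in the number of cells of a type and a change in RNA per cell cannot be told apart.

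The genes differed in level by more than 3 orders of magnitude. Levels are mean normalised counts over all 4 libraries in the authors' deposited table, and are compared between genes per kb of exon (the union of exons in the BDGP6 annotation). Sox14 was highest, at 4493 per kb, followed by tj at 3066, bun at 2026 and exd at 1163 per kb. The homeodomain gene ct stood at 663, cas at 465 and zfh1 at 214 per kb. Far below them came hth at 17.8, chinmo at 13.5 and en at 0.709 per kb. Sox14 and tj were above 97.7% and 96.6% of genes with any reads on this scale, and chinmo and hth above 31.6% and 33.5%. The spread of these levels over libraries was not available for this comparison, so neighbours in the order cannot be set apart. Divided by the longest transcript instead, bun (3633 per kb) passed tj and no other neighbours changed places.

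**Figure D1:**
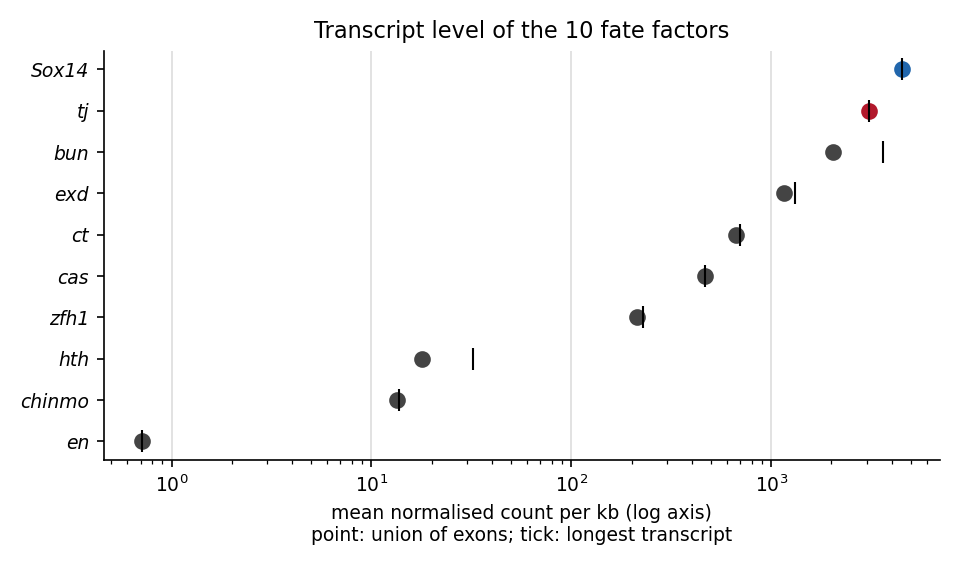
Mean normalised count per kb of exon (log axis) of each factor, over all 4 libraries. Points use the union of exons and ticks the longest transcript; red marks tj, which rose, blue Sox14, which fell, and grey the others. The values run from 0.709 for en to 4493 for Sox14, with hth and chinmo well below the other detected genes.

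The gene-level counts pool all transcripts of a gene. In the BDGP6 annotation, bun has 10 transcripts coding for proteins of 9 lengths, from 189 to 1331 amino acids. Long and short products of bun are known to act differently, and the table does not separate them. The same holds for hth, whose 5 transcripts code for proteins of 266 to 487 amino acids, and forms of Homothorax without the homeodomain are known. At the other end exd and Sox14 each code for a protein of 1 length, 376 and 669 amino acids. Exons of zfh1 and hth share 315 and 207 bp with annotated antisense RNAs, 4.56% and 1.75% of their exonic length, and Sox14 shares 3 bp with Phm on the opposite strand. Phm has a row in the authors' deposited table, but neither antisense RNA was found there by its CR symbol. The sources at hand do not say whether counting used the strand, and reads from these stretches may belong to either gene.

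tj (Traffic jam) is a large Maf factor of the somatic gonad, present in follicle cells from their earliest stages and needed for their contact with the germ line. With a mean of 10707 normalised counts it was among the most abundant transcripts, ranked 369 of 15682 genes. It rose by 0.87 ± 0.24 (SE, adjusted p = 0.00216) in the authors' deposited table, a fold of 1.82 with a 95% interval of 1.31 to 2.54. Its SE was close to the median of 0.25 for the 418 genes of similar mean, that is within a factor of 1.5. By p-value it ranked 1639 of 9409. The other Maf gene examined, the small Maf factor maf-S, stood at 0.10 ± 0.29 (adjusted p = 0.828). Of the 23 other genes listed for the somatic and follicle stem cell lineage, 2 rose, 5 fell and 16 did not pass, with a median of 0.06. Those that passed with the smallest adjusted p were Six4, which rose, and ush, H15 and pnt, which fell. The tj value depended on scaling: centred on the ribosomal protein genes, whose median lies at 0.92, it was −0.05 (adjusted p = 0.867).

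Sox14 is an HMG-box factor induced directly by ecdysone, best known from the pruning of neurites at metamorphosis. It had a mean of 16079.6 normalised counts, rank 208 of 15682. It fell by 1.09 ± 0.22 (adjusted p = 6.52e-06) in the authors' deposited table, to 0.470 of the control level with a 95% interval of 0.351 to 0.630. It ranked 624 of 9409 by p-value, the first of the 10 fate factors. It fell under every scaling tried, from −2.01 when centred on the ribosomal protein genes to −0.96 once a trend of fold change on exonic length was removed.

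Sox14 is the one gene of the 10 with a row in the authors' second deposited table, which lists 40 transcription factors, 14 higher and 26 lower, with DESeq2 adjusted p-values up to 0.0098. The gene tj, at a DESeq2 adjusted p of 0.00216, is absent from it, so that limit alone did not decide which factors are listed. No Cuffdiff or RNAi result was therefore at hand for tj. The values below are those of the second table. For Sox14, Cuffdiff gave a log2 fold change of −1.12 (adjusted p = 0.000916), beside −1.09 from DESeq2 in the authors' deposited table. RNAi lines were tested for 26 of the 40 factors in early follicle cells. The penetrance of a phenotype is given as none for Sox14 and for 15 others in the authors' deposited table of the screen. How many ovarioles were scored is not stated in the sources at hand.

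Other Sox genes were far lower in level than Sox14 in the authors' deposited table. SoxN, with a mean of 33.3 normalised counts, fell by 1.37 ± 0.45 (adjusted p = 0.0104). Sox102F, at a mean of 33.1, stood at −0.72 ± 0.43 (adjusted p = 0.188), and Sox100B, at a mean of 14.7, at 0.44 ± 0.51 (adjusted p = 0.548). Sox21a, at a mean of 6.60, was at 1.14 ± 0.56 with no adjusted p. The members of the family thus stood on both sides of 0, and among those with an adjusted p Sox14 and SoxN passed, both lower.

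**Figure D2:**
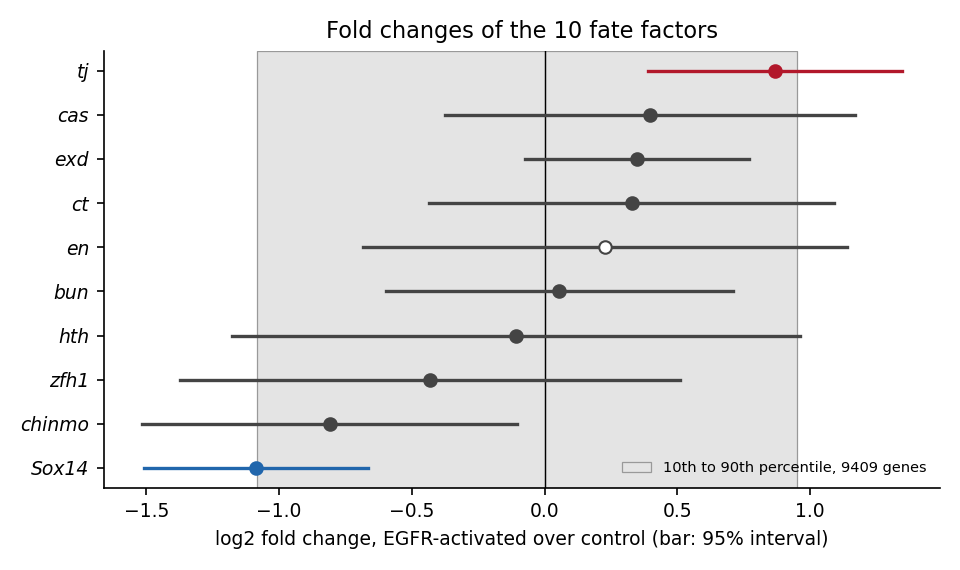
Log2 fold change of each factor, EGFR-activated over control, with its 95% interval from the deposited standard error. The grey band spans the 10th to the 90th percentile of all tested genes, −1.08 to 0.95; red and blue mark adjusted p under 0.05, and the open point is en, which has no adjusted p. The intervals of tj, chinmo and Sox14 leave out 0, and those of the other 7 cross it.

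cas, zfh1 and chinmo act in stem cells, precursors, polar cells and stalk cells. cas (Castor) is a zinc finger factor known for temporal fate in neuroblasts, kept in polar and stalk precursors while the main-body cells lose it. It stood at 0.40 ± 0.39 (adjusted p = 0.467) with a mean of 1466 normalised counts, and its 95% interval of the fold ran from 0.770 to 2.25. The zinc finger homeodomain repressor zfh1, which in the testis maintains cyst stem cells downstream of JAK-STAT, was at −0.43 ± 0.48 (adjusted p = 0.524) with a mean of 1480.3. Its interval, 0.386 to 1.42, covered both a fall and a rise. Neither gene passed, and neither interval shows that the level was equal in the groups.

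chinmo, a BTB zinc finger factor that is likewise a JAK-STAT target in testis cyst stem cells, came nearest to the threshold of those that did not pass. It stood at −0.81 ± 0.36 in the authors' deposited table (p = 0.0248, adjusted p = 0.0654), a fold of 0.570 with a 95% interval of 0.349 to 0.931. Its mean was 170.2 normalised counts spread over 12618 bp of exon. At a threshold of 0.1 it would count as lower, as 20.3% of tested genes did. After removal of the length trend it was at −0.26 (adjusted p = 0.650).

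Of 12 JAK-STAT pathway genes, 1 rose, 2 fell and 9 did not pass, with a median of −0.23. Stat92E, the transcription factor, rose by 1.03 ± 0.25 (adjusted p = 0.000350). The kinase gene hop and et, a relative of the receptor gene dome, fell. The gene dome itself stood at −0.26 ± 0.23 (adjusted p = 0.416). The JAK-STAT target Socs36E, a negative regulator of the pathway, stood at 0.38 ± 0.23 (adjusted p = 0.186). The deposited values of zfh1 and chinmo were below 0, but neither gene passed. With the length trend removed they were at −0.01 and −0.26. A difference between Stat92E and these genes was not tested. Centred on the ribosomal protein genes, Stat92E was at 0.11 (adjusted p = 0.734), and 0 of the 12 were higher and 9 lower. Under that scaling 1.02% of all tested genes were higher and 56.2% lower.

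Of 13 other genes listed for polar and stalk cells in the authors' deposited table, none rose, 2 fell and 11 did not pass. The 2 were sim, a bHLH-PAS factor best known from the embryonic midline, at −1.95 ± 0.22 (adjusted p = 4.92e-16), and Lac, which encodes Lachesin of septate junctions, at −1.50 ± 0.25 (adjusted p = 4.47e-08). The JAK-STAT ligand gene of polar cells, listed as os, stood at 0.46 ± 0.35 (adjusted p = 0.321), and neur, a ubiquitin ligase of Notch ligands, at 0.60 ± 0.32 (adjusted p = 0.124). Below 0 was LamC at −0.62 ± 0.26 (adjusted p = 0.0515), and the remaining genes ran from −0.44 (fng) to 0.71 (upd2). The median of the list was 0.14. With the length trend removed, neur passed at 0.84 (adjusted p = 0.0327) and LamC at −0.72 (adjusted p = 0.0257). Of the 10 with a value, 1 was higher and 3 lower. Over 7772 genes, 11.3% were then higher and 16.9% lower.

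hth and exd encode partner homeodomain proteins of the TALE class. Homothorax binds Extradenticle and carries it into the nucleus, where the pair acts with Hox proteins. Their transcripts differed 65.3-fold in level per kb of exon, exd at 1163 and hth at 17.8. exd stood at 0.35 ± 0.22 (adjusted p = 0.207) with a narrow 95% interval of the fold, 0.949 to 1.71. hth stood at −0.11 ± 0.55 (adjusted p = 0.905) with a 95% interval of the fold of 0.443 to 1.95, the widest of the 10 on the log scale. A fold of 1.43 either way would have passed for exd, and one of 2.45 would have been needed for hth. The comparison therefore had little to say about hth at this precision.

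Hox and other TALE genes were mostly low or near 0. Of the 15 examined, 2 were at 0 and 8 had an adjusted p in the authors' deposited table. abd-A alone passed, lower, at −0.84 ± 0.24 (adjusted p = 0.00253) with a mean of 659 normalised counts. That call ended with the length trend removed (−0.50, adjusted p = 0.105). The Iroquois-class gene mirr, of which Mirror patterns the follicle epithelium, had the highest mean, 921, and stood at 0.36 ± 0.25 (adjusted p = 0.281).

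ct (Cut) is a homeodomain factor of main-body cells in the mitotic phase, and Notch ends its expression at the switch to the endocycle. It stood at 0.33 ± 0.39 (adjusted p = 0.555) with a mean of 8244 normalised counts, and the 95% interval of its fold ran from 0.740 to 2.13. After removal of the length trend it was at 0.87 (adjusted p = 0.0784). Of 14 measured genes listed for that switch, 2 rose, 2 fell and 10 did not pass, with a median of 0.23 in the authors' deposited table. The risers were CycE, the cyclin of S phase entry, at 0.86 ± 0.27 (adjusted p = 0.00621) and stg, the Cdc25 phosphatase that drives mitosis, at 0.54 ± 0.21 (adjusted p = 0.0366). peb, which encodes Hindsight, the zinc finger factor that Notch induces at the switch and that represses ct, fell by 1.35 ± 0.30 (adjusted p = 5.82e-05). numb, a Notch inhibitor, fell by 0.68 ± 0.22 (adjusted p = 0.00782), a call that was lost with the length trend removed (−0.39, adjusted p = 0.182). Centred on the ribosomal protein genes, CycE and stg were at −0.06 and −0.39 and no longer passed.

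bun (Bunched) is the fly member of the TSC22 family, leucine zipper proteins that act in follicle cell patterning and in growth. It had the highest mean of the 10, 25512 normalised counts, rank 97 of 15682. Its fold change was 0.06 ± 0.33 (adjusted p = 0.921), and its 95% interval of the fold was 0.660 to 1.64. Madm, which encodes a binding partner of the long Bunched proteins, stood at −0.26 ± 0.31 (adjusted p = 0.553). The BMP genes dpp and tkv, which act upstream of bun in follicle cells, stood at 0.14 ± 0.29 (adjusted p = 0.747) and −0.08 ± 0.29 (adjusted p = 0.859). Of the 23 partner and related genes listed for the 10 factors, none rose and 2 fell, SoxN and the BTB factor gene lola at −0.49 ± 0.20 (adjusted p = 0.0434). With the length trend removed, lola was at 0.19 (adjusted p = 0.541), and of the 12 with a value 2 were higher (br and zfh2) and 0 lower. The shares over 7772 genes were 11.3% higher and 16.9% lower. The zinc finger homeodomain relative of zfh1, zfh2, stood at 0.19 ± 0.25 (adjusted p = 0.594) as deposited and at 0.74 (adjusted p = 0.0156) with that trend removed.

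en (Engrailed) is a homeodomain repressor expressed in the ovary by terminal filament and cap cells, the niche of the germ line. Its mean was 1.98 normalised counts, below the lowest mean with an adjusted p, 7.73, and its fold change was 0.23 ± 0.46, at counts too low to show a difference. Its neighbour and relative inv had a mean of 1.95 and stood at 0.01 ± 0.50. Of 11 other terminal filament, cap and escort cell genes, 3 rose and none fell in the authors' deposited table. These were Con, a leucine-rich repeat adhesion gene, at 1.35 ± 0.46 (adjusted p = 0.0132), the glutathione transferase gene GstS1 at 1.14 ± 0.46 (adjusted p = 0.0370) and the glypican gene dally at 0.60 ± 0.25 (adjusted p = 0.0497). The ligand gene hh, defining for terminal filament and cap cells, stood at 0.68 ± 0.50 (adjusted p = 0.296), and bab1 and bab2 at −0.12 ± 0.41 and 0.06 ± 0.46. The list median was 0.60. None of the 3 passed with the ribosomal protein genes as the centre, and GstS1 did not pass with the length trend removed (1.01, adjusted p = 0.0842).

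**Figure D3:**
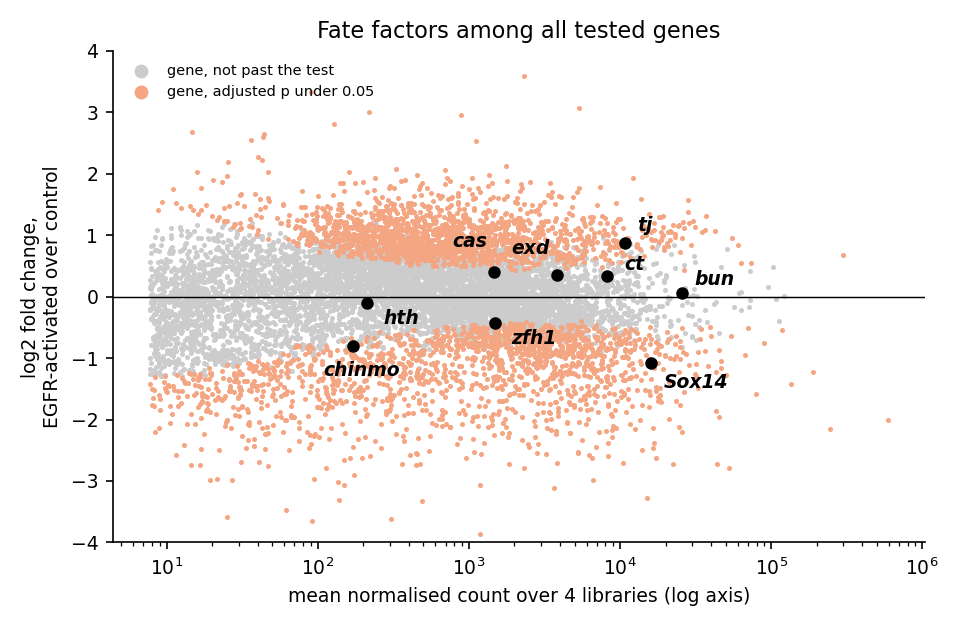
Log2 fold change against mean normalised count (log axis) for the 9409 genes with an adjusted p, orange where it is under 0.05, with 9 factors in black (en has no adjusted p). 4 genes lie beyond the axis limit of 4. tj and Sox14 stand among the genes past the test, while cas, exd, ct, bun, hth and zfh1 lie in the grey band around 0 and chinmo at its lower border.

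The precision also differed between the factors. At a similar mean, the SEs of cas, zfh1, hth and ct were larger than those of 95.9%, 98.6%, 97.1% and 96.2% of the other genes. For cas and zfh1 the SE was 0.39 and 0.48 against a median of 0.25 for genes at their level, for hth 0.55 against 0.31, and for ct 0.39 against 0.25. The SEs of tj, exd and Sox14 were larger than those of 42.3%, 31.0% and 19.5% of genes at their level. bun was larger than 83.0% and chinmo than 62.9%. In this design of 2 libraries a group, an SE above that of genes at the same level reflects a larger fitted spread between libraries of a group. Among the other gene lists, germ line markers had the most such SEs, with 8 of 12 larger than 90% of genes at their level, osk and vas among them. Of the terminal filament, cap and escort genes 6 of 11 were, of muscle sheath markers 2 of 20 and of JAK-STAT genes none of 12. No relation between these lists and the factors was tested.

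**Figure D4:**
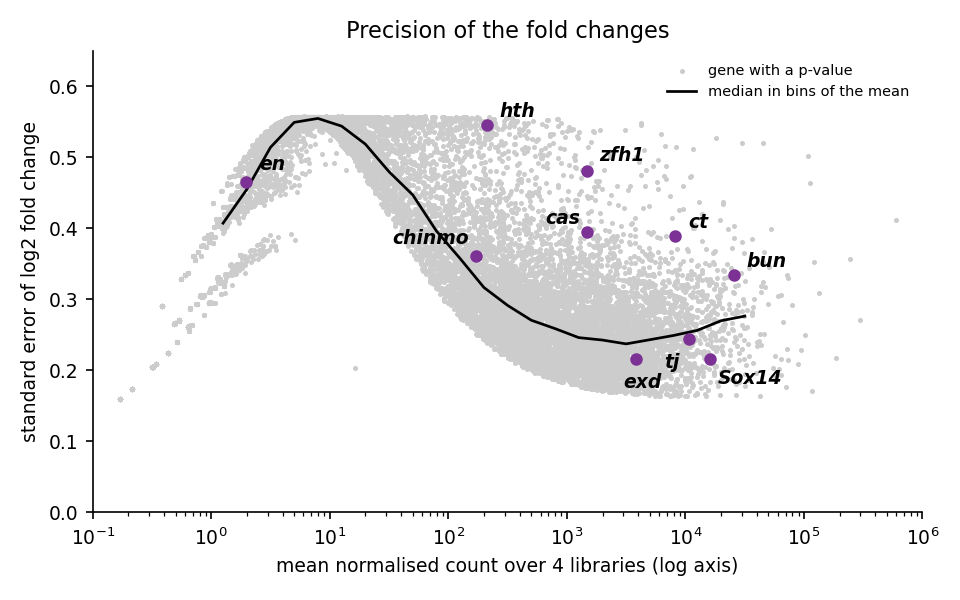
Standard error of the log2 fold change against mean normalised count (log axis) for all 12650 genes with a p-value, with the median in bins of the mean as a line and the 10 factors in purple. hth, zfh1, cas and ct stand well above the line, bun and chinmo less so, and tj, exd and Sox14 on or under it. The errors stop at a ceiling of 0.557.

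That ceiling bears on how the values read. The SEs in the authors' deposited table never exceeded 0.557, and 303 genes lay within 0.001 of it, the form that shrunken fold changes with their matching errors take. Solving for the unshrunken values from that ceiling leaves the Wald scores and p-values as they were by construction. It moved tj to 0.91 ± 0.26 and Sox14 to −1.13 ± 0.22, close to the −1.12 that Cuffdiff gave. The values of zfh1 and chinmo became −0.57 ± 0.64 and −0.92 ± 0.41, those of cas and ct 0.46 ± 0.46 and 0.38 ± 0.45, and exd and bun were at 0.36 and 0.06. hth went to −0.18 ± 0.90, against a deposited SE of 0.55. The equation allows a second solution for each factor, and the values above are those with the smaller SE. The second was −0.27 ± 1.38 for hth, −1.75 ± 1.95 for zfh1, 2.71 ± 2.69 for cas and −28.0 ± 5.55 for Sox14. Which solution holds was not tested.

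The sign of several factors depended on the scaling. Centred on the ribosomal protein genes, 6 of the 10 changed sign (tj, cas, bun, exd, en and ct). Past the test there were then 0 higher and 5 lower (zfh1, chinmo, bun, exd and Sox14), where 1.02% of all tested genes were higher and 56.2% lower. All 10 factors have more exon sequence than the median gene at a mean of at least 50, 2199 bp. With a trend of fold change on exonic length removed, tj was at 0.98 (adjusted p = 0.000533) and Sox14 at −0.96 (adjusted p = 9.61e-05). These were again 1 higher and 1 lower, where 11.3% of 7772 genes were higher and 16.9% lower. The longest genes moved most: chinmo went from −0.81 to −0.26 (adjusted p = 0.650) and bun to 0.60 (adjusted p = 0.175). Similarly, ct went to 0.87 and hth to 0.43 (adjusted p = 0.614), while zfh1 went to −0.01.

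**Figure D5:**
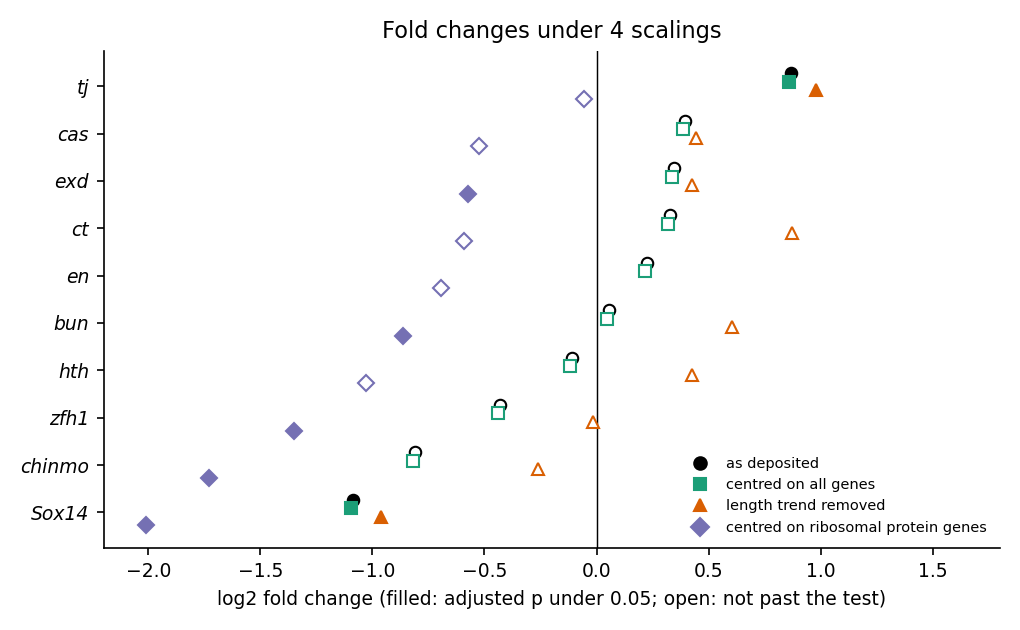
Log2 fold change of each factor as deposited, centred on all genes, with the length trend removed and centred on the ribosomal protein genes; filled symbols have an adjusted p under 0.05. Sox14 is below 0 and past the test under all 4, tj is past it under 3 and at −0.05 under the last, and en has no value with the length trend removed.

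The libraries held follicle cell transcripts at high level, with means of 31666 normalised counts for Fas3 and 5802 for eya in the authors' deposited table. Of these, eya rose by 0.90 ± 0.25 (adjusted p = 0.00171), and Fas3 stood at −0.70 ± 0.33 (adjusted p = 0.0788). Centred on the ribosomal protein genes, eya was at −0.02 (adjusted p = 0.956). Egfr, the gene carried by the transgene, rose by 1.498 ± 0.35 (adjusted p = 0.000177), and gro, which encodes the corepressor Groucho, stood at 0.37 ± 0.26 (adjusted p = 0.272). Transcripts listed as markers of other cell types were present. Germ line markers summed to 15303 normalised counts over 12 genes, of which none passed the DESeq2 test and 1, Rbp9, had an unadjusted p under 0.05, with a median of −0.01. The germ line marker vas stood at −0.05 ± 0.48 (adjusted p = 0.951). Of 20 muscle sheath markers, 14 fell, with a median of −1.27. Most of their summed mean of 51228 came from Tm1 (29906) and Zasp52 (13796), genes also used outside muscle. The median of the 20 means was 164. Of 6 measured fat body and oenocyte markers 4 fell and 1 rose. Of 7 hemocyte markers 1 rose, vkg at a mean of 26543 normalised counts, and 1 fell, srp at a mean of 10078. Hml, Pxn, nimC1 and eater had means of only 36.0, 58.0, 7.03 and 8.99, and none of them passed. Nor did crq, at a mean of 6398. Of 5 neuron markers none passed, also at an unadjusted p under 0.05. The part of these cells in the values of the fate factors was not tested.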

How the data were processed

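RNA of 4 libraries, 2 control and 2 EGFR-activated, was made into libraries with ScriptSeq after poly(A) selection, per the labels' protocols. The submitters' processing notes name TopHat2 2.0.10, HTSeq 0.6.1, DESeq2 1.2.10 and, as genome build, BDGP5. The authors' deposited table gives per gene a mean normalised count (a signal scaled by size factors), a log2 fold change with its SE, then the Wald score, p-value and adjusted p-value, per the file headers. Their second table adds Cuffdiff log2 fold changes, adjusted p-values and the penetrance class of an RNAi phenotype, per the file headers.

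The design named a quasi-likelihood test for counts per library. With the authors' own comparison in use, their DESeq2 adjusted p over all genes was taken as deposited. The counts of genes, and the adjustments made anew here, left out 5 rows without a gene name. The deposited adjusted p-values were not recomputed without these rows. They held 47.0% of the summed means, and the row of non-unique alignments alone 41.2%. A p-value was given for 12650 of the 15682 genes, an adjusted p for 9409, and 3032 genes were at 0. The size factors recovered from the lowest means were 1.46, 1.16, 0.786 and 0.773; the labels do not tie these libraries to groups. The labels call the replicates biological.

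The 10 genes and the 12 companion lists (174 entries, 8 not matched by symbol or synonym) were chosen with earlier results of these data known. Genes named are all 10, their relatives and partners, and up to 4 per list past the test in order of adjusted p, at a mean of 50 or more. Also named after their values were seen were Fas3, eya, vas, osk, Socs36E, os, neur, hh, bab1, bab2, mirr, dpp, tkv, Tm1 and Zasp52. So were dome, LamC, fng, upd2, Hml, Pxn, nimC1, eater and crq, and 3 of the Sox genes.

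Exonic lengths, read from the BDGP6 annotation through symbols and synonyms, were available for 98.5% of the 7887 genes whose mean was 50 or more. Exon overlaps were also read within BDGP6. The builds differ, so no coordinates were matched to BDGP5. The length trend was fitted by lowess (statsmodels 0.14.6, span 0.3) to fold change against log2 length, checked on simulated data. Intervals are at 95%, from the deposited SE. Benjamini-Hochberg adjustment was used after rescaling. Python 3.11.15, pandas 2.3.3 and scipy 1.17.1 were used. Promoter motifs and sequences were not analysed here.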

Additional observations from a re-analysis of the deposited data

How the results depend on the processing

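No fold change of the 10 factors changed sign or its side of the threshold when centred on the median of all genes. No call changed with no filter on the mean or, for the 9 with an adjusted p, with a mean of at least 50. These filters keep the deposited fold changes, so only the calls could have changed. Undoing the shrinkage keeps signs and p-values by construction, so it is no check of either. That setting was chosen after seeing the data. Sox14 also passed with Cuffdiff. Centred on the ribosomal protein genes, 6 reversed: tj was at −0.054, cas at −0.52, bun at −0.87, exd at −0.57, en at −0.69 and ct at −0.59. There zfh1 (−1.35, adjusted p = 0.0101) and chinmo (−1.73, adjusted p = 6.48e-06) passed, and the counts of higher and lower calls went from 1 and 1 to 0 and 5. With the length trend removed, hth reversed to 0.43 and no call changed. At an adjusted p under 0.1 the lower count was 2, with chinmo added. The cause of these shifts was not tested beyond the construction of each alternative. Per kb of the longest transcript, levels moved to 227 for zfh1, 13.7 for chinmo, 3633 for bun, 32.2 for hth, 1310.5 for exd and 701 for ct.

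No paired analysis was possible because the authors' comparison gives no values per library; for the same reason leaving out a library and other normalizations of counts were not run. At a mean of 1.98 normalised counts, a difference in en was not detectable.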

Other observations

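The mean of en in the authors' deposited table, 1.98 normalised counts, has a single solution in whole reads over the 4 libraries, within a tolerance of 3e-08: 9 reads in all, as 4, 3, 0 and 2. The labels do not tie these libraries to groups and no group was inferred from their values; their order is that of their size factors, 1.46, 1.16, 0.786 and 0.773. Reads of en were thus found in 3 of the 4 libraries, and the 0 lies in a library of small size factor.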
